A study of Homo sapiens with 21 samples.

Results

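CIMIP2A, EID3 and RPA4 are 3 genes that were nearly silent in Hs578T cells treated with DMSO and whose read counts rose with CDK12/13 inhibition, and each lies inside or against a gene that these cells express. They are described here with the genes at the same loci, TUBB4B and STPG3 beside CIMIP2A, TXNRD1 around EID3 and DIAPH2 around RPA4. These 7 genes were picked on their position among the 28395 genes in the count table and on the rise of CIMIP2A, EID3 and RPA4 against DMSO, so the rises of these 3 genes are given as a description without a test. Of the 7 genes, 6 passed the filter on low counts and STPG3 did not. The 3 rising genes passed it through the groups in which they were high.

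Hs578T is an established cell line of triple-negative breast cancer, here of wild-type genotype. THZ531 blocks the kinases CDK12 and CDK13, and the other agents, lapatinib and nilotinib, block tyrosine kinases. Cells were treated with DMSO, THZ531 at 0.1 μM, lapatinib at 3.16 μM, nilotinib at 1 μM, lapatinib at 3.16 μM with THZ531 at 0.1 μM, nilotinib at 1 μM with THZ531 at 0.1 μM, or THZ531 at 1 μM, and RNA was collected after 8 h. Each of these 7 groups had 3 replicates. The study describes them as samples of independent experiments. Lapatinib or nilotinib given together with 0.1 μM THZ531 is called the lapatinib or the nilotinib combination, and both combinations and THZ531 at 1 μM are called the 3 strong treatments.

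CDK12 and CDK13 phosphorylate the tail of RNA polymerase II while it moves along a gene, and loss of their activity is known to make transcripts of long genes end early, often at polyadenylation signals within introns. A polyadenylation signal is a short motif, most often AATAAA, that lies shortly before the point where the transcript is cut and its poly(A) tail is added. In unstranded libraries a read does not show which DNA strand was transcribed, and a read from an unspliced or prematurely ended transcript of a host gene can lie over a gene nested in its intron. Counts per gene alone cannot tell such reads from those of the nested gene's own transcript.

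The 3 loci differed in their arrangement. CIMIP2A (NCBI gene 401565, listed as FAM166A in GENCODE), which encodes a protein of the inner wall of ciliary microtubules, lies on the minus strand of chromosome 9, at chr9:137243599-137255122 in RefSeq on GRCh38.p14 and at chr9:137243584-137247770 in GENCODE v44. TUBB4B (gene 10383, chr9:137241287-137243707), a broadly expressed β-tubulin, runs towards it on the plus strand, and the 3′ ends of the 2 genes overlap by 109 bases in RefSeq and by 124 bases in GENCODE, all of them exonic. STPG3 (gene 441476, chr9:137251286-137253483, plus strand), which encodes a protein with sperm-tail repeats, lies within the longer RefSeq span of CIMIP2A and 3490 bases beyond its GENCODE span. Of the 1556 windows of 50 bases along the CIMIP2A transcript, 75 also occurred in TUBB4B, all through this overlap.

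EID3 and RPA4 are genes of 1 exon that lie in an intron of a longer gene on the same strand. EID3 (gene 493861, chr12:104303739-104305205, plus strand), which encodes a subunit of the SMC5/6 complex of genome maintenance, lies in the intron of TXNRD1 that follows the fourth of 17 exons, 14698 bases after that exon and 6084 bases before the next. TXNRD1 (gene 7296, chr12:104215779-104350307) encodes thioredoxin reductase 1, and 15 of its 19 GENCODE transcripts span EID3 while 0 have an exon over it. RPA4 (gene 29935, chrX:96883908-96885467, plus strand), a paralog of the RPA2 subunit of the single-strand binding protein RPA, lies in the DIAPH2 intron after the fifth of 27 exons, 2189 bases after that exon and 26860 bases before the next. DIAPH2 (gene 1730, chrX:96684842-97604997) encodes a formin that nucleates actin filaments, and both of its GENCODE transcripts span RPA4 without an exon over it. None of the 1418 windows of 50 bases of EID3 and none of the 1511 of RPA4 occurred in a GENCODE transcript of another gene.

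The last bases of the transcripts are shown because CIMIP2A meets TUBB4B there and because EID3 carries a polyadenylation signal of its own within a TXNRD1 intron. Capitals mark the signal AATAAA or its variant ATTAAA, each sequence is 30 bases of GRCh38 read 5′ to 3′ on the gene's strand, and their positions are chr9:137243584-137243613 (minus, CIMIP2A in GENCODE), chr9:137243678-137243707 (plus, TUBB4B), chr12:104305174-104305203 (plus, EID3) and chrX:97604968-97604997 (plus, DIAPH2).
CIMIP2A: ctgggagtgAATAAAgagttcacactgctt
TUBB4B: agacaccaccATTAAAgcattttcatagtg
EID3: actattAATAAAaacaagttttggatacca
DIAPH2: ttattcAATAAAgttaagatatacgttaaa
RPA4 and STPG3 held neither form within the last 50 bases of their transcripts, which says only that these letters are not in this window.

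The promoters of CIMIP2A and TUBB4B are shown because these genes face each other at 1 locus and stood at the opposite ends of the expression range. They are RefSeq windows on GRCh38.p14 from 250 bases before to 50 after the transcript start, at chr9:137247702-137248001 (minus, CIMIP2A) and chr9:137241037-137241336 (plus, TUBB4B), and capitals mark the motif CCAAT. For CIMIP2A the window is that of the shorter form, since the longer RefSeq span starts 7352 bases before the GENCODE start of the gene.
CIMIP2A promoter: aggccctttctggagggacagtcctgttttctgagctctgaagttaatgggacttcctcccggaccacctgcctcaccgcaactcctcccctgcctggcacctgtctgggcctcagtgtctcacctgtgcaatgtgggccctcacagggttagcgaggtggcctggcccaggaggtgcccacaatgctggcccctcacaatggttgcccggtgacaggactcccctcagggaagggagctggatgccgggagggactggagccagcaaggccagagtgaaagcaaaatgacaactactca
TUBB4B promoter: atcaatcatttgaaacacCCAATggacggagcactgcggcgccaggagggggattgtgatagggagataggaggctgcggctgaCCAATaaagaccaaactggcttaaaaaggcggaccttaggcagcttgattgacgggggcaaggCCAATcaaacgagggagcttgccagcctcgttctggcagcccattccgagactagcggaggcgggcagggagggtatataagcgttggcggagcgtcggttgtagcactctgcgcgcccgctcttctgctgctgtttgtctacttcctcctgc
On both strands, 4 motifs were searched, the TATA box (TATAAA), the CCAAT box, the GC box (GGGCGG) and TGACNNNGC (the core of the antioxidant response element, which the factor NRF2 binds), and these occurred in 11.5%, 34.6%, 45.0% and 13.3% of the 35116 RefSeq promoters of this length. The CIMIP2A window held none of the 4 and 5 CpG dinucleotides, against a median of 14 over all promoters, while the TUBB4B window held CCAAT 3 times and 18 CpG dinucleotides. In TXNRD1, both promoter windows held the antioxidant response element core, and the DIAPH2 window held the GC box 3 times. Promoter windows were matched for 5 of the 7 genes, and EID3 and RPA4 were not among them.

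The total count per library was 97612207 to 112229052 counts, and levels are CPM, counts relative to a library size adjusted by the trimmed mean of M-values (TMM). The mesenchymal markers of this line were high (VIM at 6390 to 10100 CPM, and AXL at 1320 to 1890 CPM), while ESR1, PGR, EPCAM and CDH1 did not exceed 0.502 CPM in any library. Replicates correlated at 0.990 to 0.994. The share of counts on mitochondrially encoded mRNAs was 1.19% to 1.35% in DMSO, 1.14% to 1.27% with 0.1 μM THZ531, 1.3% to 1.51% with lapatinib, 1.27% to 1.56% with nilotinib and 1.36% to 1.78% with the 3 strong treatments. These ranges overlapped in part, but that of the 3 strong treatments lay just above that of DMSO. Scaling to these mRNAs in place of TMM moved the median log2 fold change of all genes by −0.68 with the lapatinib combination, −0.62 with the nilotinib combination and −0.54 with 1 μM THZ531. The changes of the neighbours against DMSO in these 3 treatments are therefore given with their values under this scaling. The share of a riser in the counts of its locus does not depend on scaling.

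CIMIP2A went from the edge of detection to a clearly counted gene. It had 2, 1 and 0 counts in the 3 DMSO libraries, 3, 4 and 1 with lapatinib and 3, 5 and 2 with nilotinib. With 0.1 μM THZ531 it had 12, 11 and 16 counts, so that these libraries lay above all libraries of DMSO and of the single tyrosine kinase inhibitors. With the lapatinib combination the counts were 835, 993 and 1091, with the nilotinib combination they were 880, 1076 and 941, and with 1 μM THZ531 they were 906, 750 and 824. In CPM these were 10.7 ± 1.52, 10.5 ± 1.07 and 8.73 ± 0.832 (SD, n = 3). Against a floor of 3 counts per DMSO library, or 0.0252 CPM, CIMIP2A was at least 425-fold, 416-fold and 346-fold higher with these treatments, and with 0.1 μM THZ531 it was at least 4.55-fold higher. These were the highest fitted rises among all 16036 tested genes in each of the 3 strong treatments, on which the gene was chosen.

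TUBB4B, whose 3′ end CIMIP2A overlaps, was one of the abundant mRNAs of these cells in all 7 groups. Its counts in the DMSO libraries were 101350, 95678 and 103358, and in CPM its level was 841 ± 33.8 in DMSO, 1390 ± 147 with the lapatinib combination, 1290 ± 114 with the nilotinib combination and 1080 ± 96.1 with 1 μM THZ531 (SD, n = 3). Per kb of exon, TUBB4B stood at 683 CPM and CIMIP2A at 5.95 CPM with the lapatinib combination. The share of CIMIP2A in the summed counts of both genes was 0.00101% ± 0.000987 in DMSO and 0.012% ± 0.00217 with 0.1 μM THZ531. It was 0.763% ± 0.0507 with the lapatinib combination, 0.809% ± 0.0402 with the nilotinib combination and 0.801% ± 0.0453 with 1 μM THZ531 (SD, n = 3). The 3 strong treatments overlapped in this share, at 0.727% to 0.821%, 0.766% to 0.845% and 0.756% to 0.847%. Since CIMIP2A was chosen on its rise, a rise of its share follows from the choice, and the source of its reads was not tested.

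STPG3, in the longer RefSeq span of CIMIP2A, stayed at 0 to 6 counts in every library. It had 1, 2 and 1 counts in DMSO, 4, 1 and 5 with the lapatinib combination, 0, 6 and 5 with the nilotinib combination, and 0, 1 and 3 with 1 μM THZ531. These groups overlapped, and a change of STPG3 was not detectable at this depth. Its antisense RNA STPG3-AS1, which also lies in that span, had 0 to 2 counts per library. On the far side of CIMIP2A, NELFB, a subunit of the negative elongation factor that starts 205 bases beyond the RefSeq span, was at 71.3 ± 4.38 CPM in DMSO and lower with the lapatinib combination (log2 FC −0.44, edgeR's adjusted p = 0.000134) and with the nilotinib combination (−0.29, edgeR's adjusted p = 0.00591), while with 1 μM THZ531 it did not pass (−0.19, edgeR's adjusted p = 0.0569). With the mitochondrial scaling NELFB was lower in all 3 strong treatments (−1.12, −0.90 and −0.72). Over all genes, 37.8%, 37.3% and 36.8% were lower in these treatments under TMM, and 58.4%, 55.9% and 52.5% with the mitochondrial scaling. Among the other genes within 20 kb of CIMIP2A, SLC34A3, a phosphate transporter at 0.174 CPM in DMSO, was higher with 1 μM THZ531 (1.60, edgeR's adjusted p = 0.00699, and 1.04 with the mitochondrial scaling), and CYSRT1 and RNF224 passed the test in none of the 6 treatments.

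**Figure D1:**
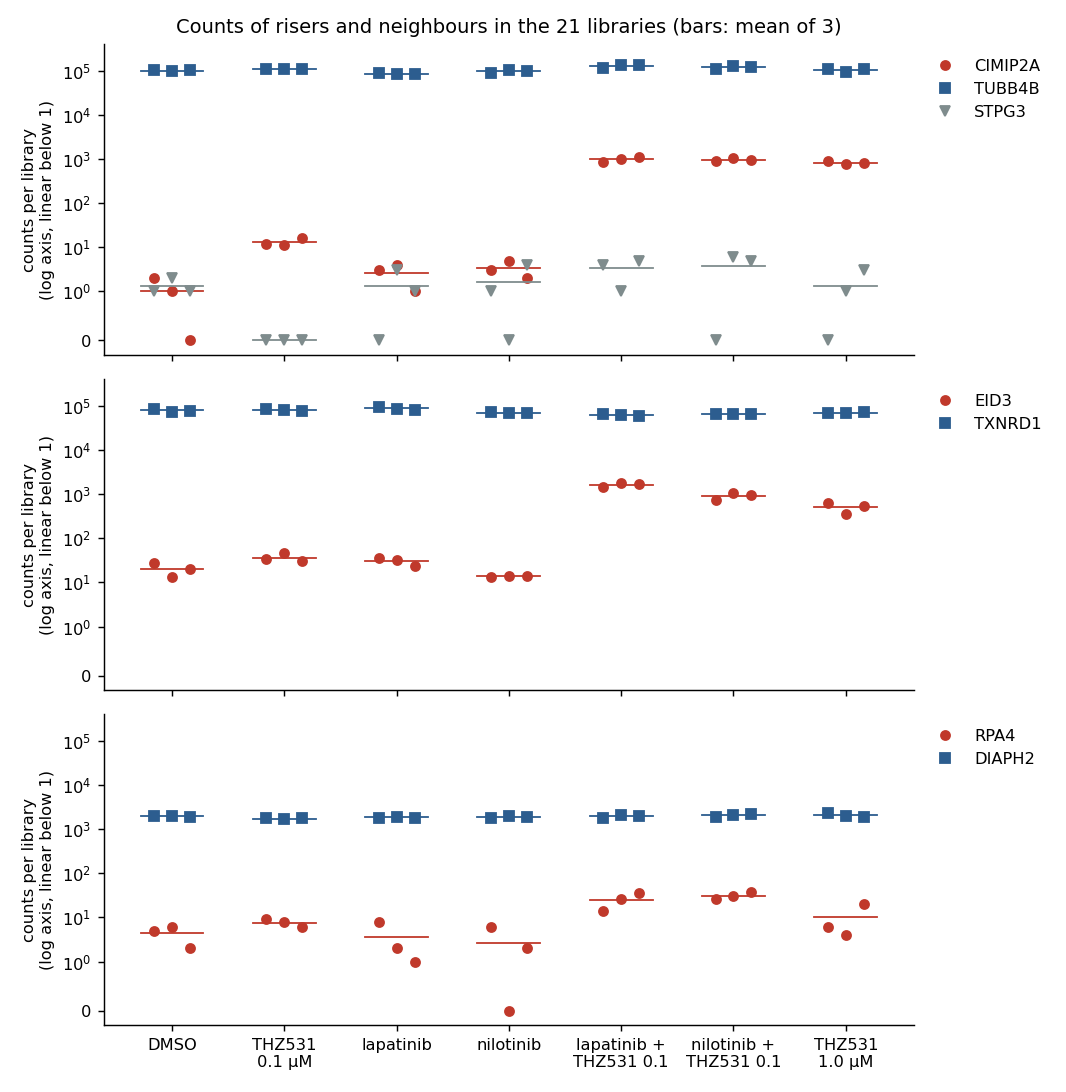
Counts per library (y axis, log scale that is linear below 1) of each riser (red circles) and its neighbours (blue squares, grey triangles for STPG3) in the 7 groups on the x axis, with bars for the mean of 3 libraries. CIMIP2A moves from 0 to 2 counts in DMSO to 750 to 1091 in the 3 strong treatments and EID3 from 13 to 28 to 349 to 1750, whereas TUBB4B, TXNRD1 and DIAPH2 stay within a narrow band.

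EID3 was low but counted in every DMSO library, with 28, 13 and 20 counts. It had 33, 45 and 31 counts with 0.1 μM THZ531, 36, 32 and 23 with lapatinib and 13, 14 and 14 with nilotinib. With the lapatinib combination it reached 1418, 1750 and 1676 counts, with the nilotinib combination 751, 1077 and 945, and with 1 μM THZ531 612, 349 and 533, so that the 3 strong treatments did not overlap with each other or with any other group. In CPM these were 17.8 ± 1.98, 10 ± 1.79 and 5.26 ± 1.44 against 0.169 ± 0.0568 in DMSO (SD, n = 3), or 105-fold, 59.3-fold and 31.1-fold higher. EID3 ranked at 27, 31 and 55 from the highest fitted rise among the 16036 genes.

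TXNRD1, which surrounds EID3 and reduces thioredoxin, did not follow it. Its counts were 84370, 72477 and 76596 in DMSO, 65173, 62355 and 58589 with the lapatinib combination, 65347, 63900 and 63422 with the nilotinib combination and 69695, 67700 and 70150 with 1 μM THZ531. The share of EID3 in the summed counts of both genes rose from 0.0257% ± 0.00763 in DMSO to 2.55% ± 0.362, 1.42% ± 0.264 and 0.712% ± 0.182 (SD, n = 3) with these treatments. Per kb of exon, EID3 was at 0.115 CPM in DMSO and at 12.1 CPM with the lapatinib combination, where TXNRD1 was at 102 CPM. The level of EID3 per kb thus remained below that of the spliced host transcript in every group.

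RPA4 stayed the least counted of the risers. It had 5, 6 and 2 counts in DMSO, 9, 8 and 6 with 0.1 μM THZ531, 8, 2 and 1 with lapatinib and 6, 0 and 2 with nilotinib. With the lapatinib combination it had 14, 26 and 35 counts and with the nilotinib combination 26, 30 and 37, all above every DMSO library, whereas with 1 μM THZ531 it had 6, 4 and 20 counts and overlapped with DMSO. Summed over the 3 libraries and scaled, the ratio to DMSO was 7.56, 9.26 and 2.9, given as a description on few counts. DIAPH2, its host, had 1967, 2010 and 1894 counts in DMSO, 1815, 2071 and 1945 with the lapatinib combination, 1862, 2058 and 2192 with the nilotinib combination and 2273, 1948 and 1916 with 1 μM THZ531. The share of RPA4 in the counts of both genes was 0.219% ± 0.101 in DMSO, 1.26% ± 0.501 and 1.49% ± 0.149 with the combinations and 0.5% ± 0.462 with 1 μM THZ531 (SD, n = 3). The last value rests on 1 library with 20 counts. The antisense RNA DIAPH2-AS1, which lies elsewhere in DIAPH2, had 0 to 4 counts per library.

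**Figure D2:**
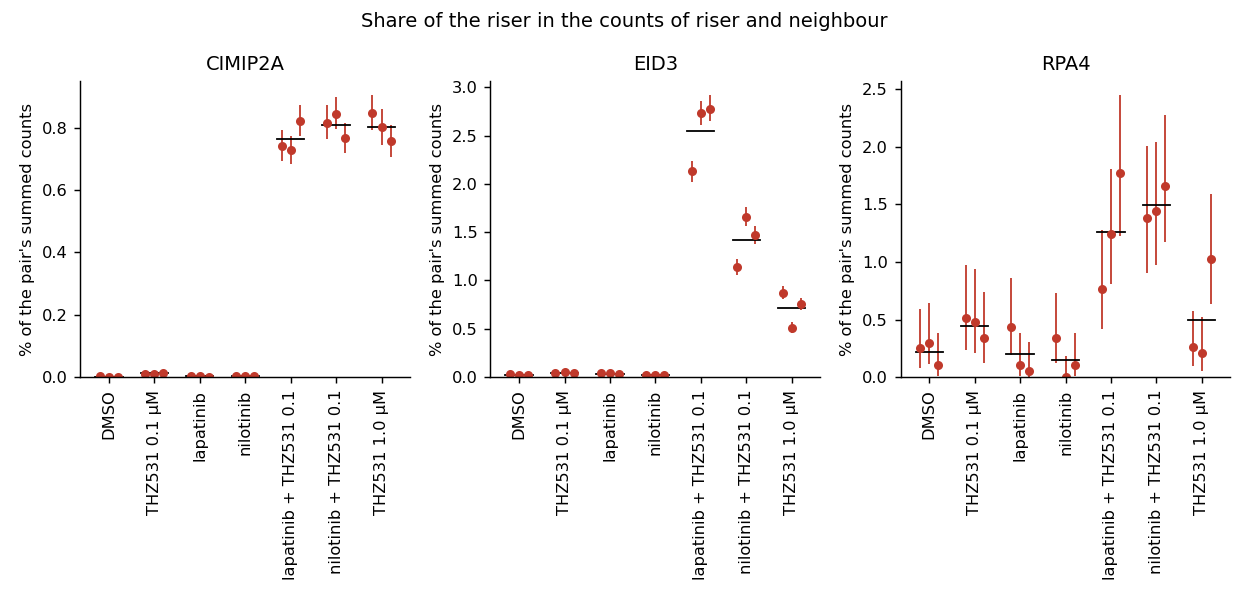
Share of each riser in the summed counts of riser and neighbour (y axis, percent) for every library of the 7 groups (x axis), with black bars for the mean of 3 libraries and red bars for the exact 95% binomial interval, which covers counting error only. The interval treats every count as independent and is too narrow if both ends of a read pair were counted. CIMIP2A reaches about the same share in the 3 strong treatments (0.763%, 0.809% and 0.801%), while EID3 steps down from 2.55% over 1.42% to 0.712%.

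With a tyrosine kinase inhibitor alone, the risers stayed at 0 to 36 counts per library, where a test has little power. A gene is called here at an adjusted p under 0.05 in the quasi-likelihood test of edgeR, adjusted after Benjamini and Hochberg over 16036 genes, and with lapatinib 0.256% of these genes were higher and 0.0561% lower, against 0.243% and 0.0998% with nilotinib. For CIMIP2A the log2 FC was 1.41 ± 0.73 (SE) with lapatinib and 1.64 ± 0.70 with nilotinib (edgeR's adjusted p = 0.818 and 0.485). For EID3 it was 0.69 ± 0.31 with lapatinib and −0.53 ± 0.36 with nilotinib (edgeR's adjusted p = 0.663 and 0.703). For RPA4 it was −0.13 ± 0.86 and −0.63 ± 0.91 (edgeR's adjusted p = 0.999 and 0.872). None of the 6 tests passed, but for CIMIP2A with nilotinib the 95% interval reached from 0.19 to 3.10, so that rises with the single inhibitors were not detectable at this depth rather than shown to be absent.

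The risers were then compared between the 3 strong treatments, which asks whether a combination acted on them as the higher THZ531 dose did. The libraries of these treatments also entered the choice of the risers, so the tests on risers are not independent of that choice. The doses of THZ531 differ between these groups, and 12.8% of all genes were higher with the lapatinib combination than with 1 μM THZ531, 11.2% were higher with the nilotinib combination than with 1 μM THZ531, and 0.730% were higher with the lapatinib than with the nilotinib combination. EID3 passed the test in all 3 comparisons. It was higher than with 1 μM THZ531 by a log2 difference of 1.76 ± 0.18 with the lapatinib combination (3.38-fold, edgeR's adjusted p = 9.57e-07) and by 0.93 ± 0.18 with the nilotinib combination (1.91-fold, edgeR's adjusted p = 6e-04). Between the combinations it was higher with lapatinib by 0.82 ± 0.18 (edgeR's adjusted p = 0.023), a call that was lost without any 1 of 4 libraries of these groups, with edgeR's adjusted p of up to 0.115, when the libraries were scaled to mitochondrial mRNAs (0.76, edgeR's adjusted p = 0.0905) and when only these groups were fitted (edgeR's adjusted p = 0.167).

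CIMIP2A passed none of these comparisons. Its log2 difference was 0.30 (95% interval 0.01 to 0.58, edgeR's adjusted p = 0.119) for the lapatinib combination against 1 μM THZ531 and 0.27 (−0.02 to 0.55, edgeR's adjusted p = 0.186) for the nilotinib combination against 1 μM THZ531. Between the combinations it was 0.03 (−0.26 to 0.32, edgeR's adjusted p = 0.963). RPA4 was higher with the nilotinib combination than with 1 μM THZ531 (1.66 ± 0.58, edgeR's adjusted p = 0.0424), but this call was lost in 13 of 21 fits without 1 library. For the lapatinib combination against 1 μM THZ531 the difference of RPA4 was 1.37 ± 0.59 (edgeR's adjusted p = 0.0905), and without the 1 μM library with 20 counts it was 2.37 (edgeR's adjusted p = 0.0145).

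**Figure D3:**
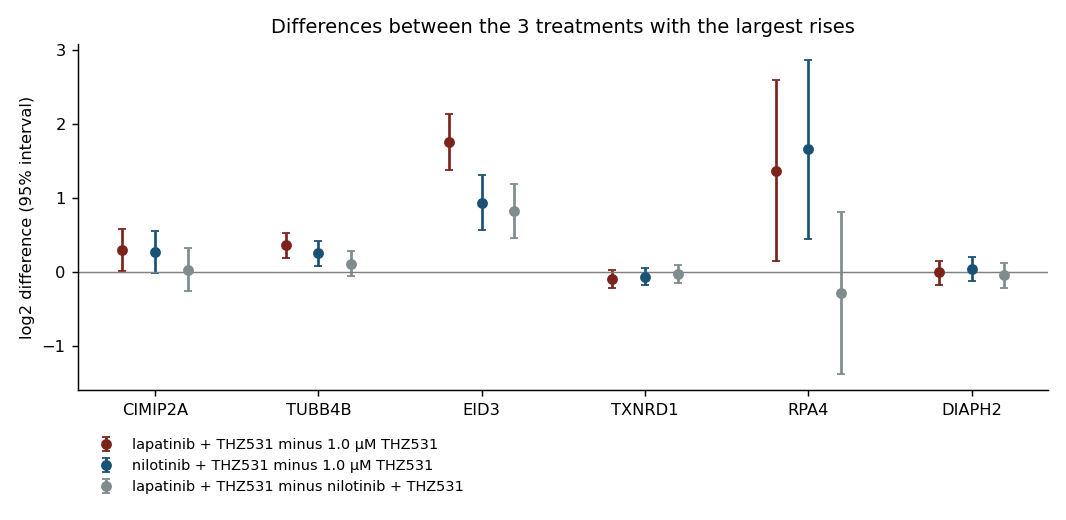
Log2 difference between the 3 strong treatments (y axis, points with 95% intervals) for the 6 tested genes (x axis), with 1 colour per comparison. EID3 lies above 0 in all 3 comparisons (1.76, 0.93 and 0.82), while every interval of TXNRD1 and DIAPH2 crosses 0 and those of CIMIP2A lie at or near it.

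The neighbours were tested against DMSO, since they were not chosen for a change. With 0.1 μM THZ531 alone, where 1.78% of all genes were higher and 4.31% lower, none of the 3 tested neighbours passed, at a log2 FC of 0.19 for TUBB4B, 0.11 for TXNRD1 and −0.12 for DIAPH2 (edgeR's adjusted p = 0.207, 0.317 and 0.461). With nilotinib none passed either (edgeR's adjusted p = 0.976, 0.448 and 0.982 in the same order). With lapatinib alone TXNRD1 was higher (log2 FC 0.27 ± 0.06, edgeR's adjusted p = 0.045, and 0.13 with the mitochondrial scaling), with 94383, 85701 and 80037 counts, but the call was lost in 18 of 21 fits without 1 library and under 5 other settings.

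With the 3 strong treatments, 34.3%, 33.7% and 33.1% of all genes were higher and 37.8%, 37.3% and 36.8% lower than in DMSO (the lapatinib combination, the nilotinib combination, and 1 μM THZ531), so that most genes passed in one direction or the other and a call on a neighbour is close to this background. TUBB4B was higher by a log2 FC of 0.73 ± 0.08, 0.61 ± 0.08 and 0.36 ± 0.08 (edgeR's adjusted p = 1.07e-07, 1.12e-06 and 0.000494), but with scaling to mitochondrial mRNAs these values were 0.04, −0.01 and −0.18 and none passed. DIAPH2 was higher by 0.38, 0.43 and 0.39, each ± 0.08 (edgeR's adjusted p = 0.00029, 7.98e-05 and 0.000217), and with the mitochondrial scaling it turned to −0.30, −0.19 and −0.16, of which only the first passed (edgeR's adjusted p = 0.042). TXNRD1 was higher with 1 μM THZ531 (0.16 ± 0.06, edgeR's adjusted p = 0.0153), a call lost without replicate 2 of DMSO or replicate 3 of 1 μM THZ531 (log2 FC down to 0.13, edgeR's adjusted p up to 0.0723), and lower by −0.62, −0.53 and −0.38 in the 3 strong treatments with the mitochondrial scaling (edgeR's adjusted p = 0.000104, 0.000754 and 0.0133). With this scaling 58.4%, 55.9% and 52.5% of all genes were lower in the same order (median −0.69, −0.63 and −0.55). The falls of DIAPH2 and TXNRD1 were thus no larger than the median over all genes. The changes of the hosts and of TUBB4B therefore stayed below 1 on the log2 scale under both scalings, whereas the fitted log2 FC of CIMIP2A and EID3 in the 3 strong treatments was 4.94 or more under TMM. That of RPA4 was 2.88, 3.17 and 1.51 in the same order, on few counts. The risers were chosen on these rises and the neighbours were not, so a gap between them follows from the choice.

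**Figure D4:**
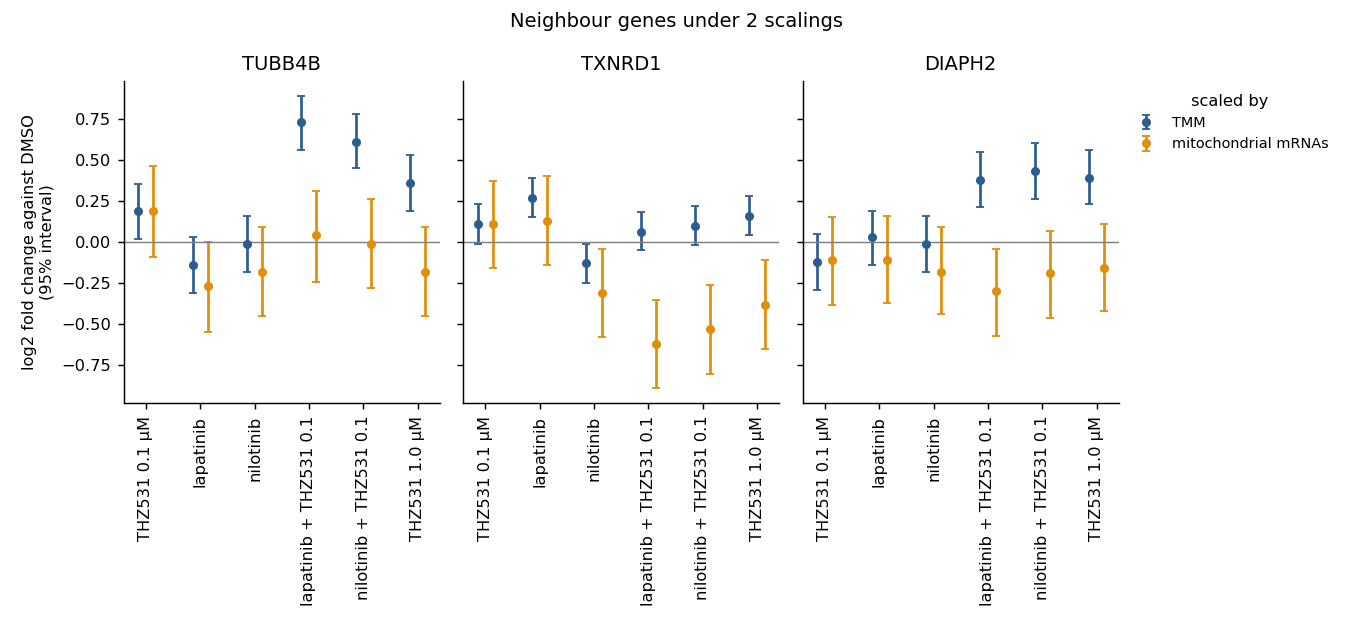
Log2 fold change against DMSO (y axis, points with 95% intervals) of TUBB4B, TXNRD1 and DIAPH2 in 6 treatments (x axis), scaled by TMM (blue) or to mitochondrially encoded mRNAs (orange). In the 3 strong treatments TUBB4B and DIAPH2 lie above 0 in blue and near or below 0 in orange, and TXNRD1 falls to −0.62, −0.53 and −0.38 in orange. The medians of all genes under the orange scaling are −0.69, −0.63 and −0.55 in the same order.

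The interaction of 0.1 μM THZ531 with each inhibitor, which is the change in the combination beyond the summed log2 changes of the single agents, was called higher in 28.2% and lower in 32.0% of all genes for lapatinib, and higher in 25.6% for nilotinib. For TUBB4B it was 0.68 ± 0.11 with lapatinib and 0.44 ± 0.11 with nilotinib (edgeR's adjusted p = 3.83e-05 and 0.00269), and 0.12 and −0.02 with the mitochondrial scaling. For DIAPH2 it was 0.47 ± 0.11 and 0.56 ± 0.11 (edgeR's adjusted p = 0.00141 and 0.00033), and −0.08 and 0.10 with the mitochondrial scaling. For TXNRD1 it was −0.31 ± 0.08 with lapatinib (edgeR's adjusted p = 0.00223) and 0.12 ± 0.08 with nilotinib (edgeR's adjusted p = 0.207), and with the mitochondrial scaling it was −0.85 and, turned, −0.32 (edgeR's adjusted p = 0.000205 and 0.183). Between the 3 strong treatments, TUBB4B was higher with the lapatinib combination than with 1 μM THZ531 by 0.36 ± 0.08 (edgeR's adjusted p = 0.00178) and with the nilotinib combination by 0.25 ± 0.08 (edgeR's adjusted p = 0.0268), calls that were both lost with the mitochondrial scaling (0.22 and 0.17). TXNRD1 and DIAPH2 passed in none of these comparisons, with log2 differences of −0.10 to 0.04.

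The genes most alike to each member were sought by Pearson's r of log2 CPM over the 21 libraries, as a description, since all follow the same 7 groups. CIMIP2A was most alike to SGK1, STIM1 and JUNB (r = 0.992, 0.991 and 0.989), EID3 to TMPPE, ID2 and RAD23B (0.990, 0.989 and 0.989) and RPA4 to TRIM58, TFAP2C and RCL1 (0.922, 0.912 and 0.911). TMPPE is itself nested in the same direction within a longer gene, GLB1, but nested genes among the most alike genes were not counted. TUBB4B was most alike to NXF1 (0.979), DIAPH2 to ERAP1 (0.975) and TXNRD1 to PJA2 at only 0.754.

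Relatives of the members were counted next, on lists without the members themselves. Over all tested genes, 34.3% were higher and 37.8% lower with the lapatinib combination, and 5.3% were higher and 58.4% lower with the mitochondrial scaling. The β-tubulins, relatives of TUBB4B, had 5 of 7 tested genes higher and 1 lower (71.4% and 14.3%) with the lapatinib combination, at a median log2 FC of 0.52 against −0.01 over all genes, with TUBB2B at 1.12 and TUBB6 at −0.35. With the mitochondrial scaling 2 were higher and 3 lower (28.6% and 42.9%), with TUBB2B at 0.43 and TUBB6 at −1.03. TUBB6 passed in neither of the other strong treatments under TMM (−0.12 and −0.15). Of the thioredoxin and peroxiredoxin genes, the system that TXNRD1 serves, 11 of 14 were higher and 0 lower (78.6% higher, median 0.62), and with the mitochondrial scaling 1 was higher and 3 lower (7.14% and 21.4%). TXNIP was at 1.25 with the lapatinib combination (0.55 with the mitochondrial scaling), but at 0.32 with the nilotinib combination (edgeR's adjusted p = 0.382). Of 13 other targets of NRF2, the factor that drives TXNRD1, 9 were higher and 2 lower (69.2% and 15.4%, median 0.49), with the ferritin light chain FTL at 1.01 and OSGIN1 at −1.32. With the mitochondrial scaling 2 were higher and 5 lower (15.4% and 38.5%), with FTL at 0.32 and OSGIN1 at −2.01.

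The relatives of the risers moved in both directions, and no test of a difference was made. Of the 3 subunits of RPA, 2 were higher and 1 lower with the lapatinib combination (median 0.48), with RPA3 at 0.62. RPA2, which RPA4 can replace, fell by 1.36 on the log2 scale (edgeR's adjusted p = 3.15e-08) and was at −1.15 with the nilotinib combination (edgeR's adjusted p = 3.48e-07). With 1 μM THZ531 RPA2 was at −0.16 (edgeR's adjusted p = 0.31). With the mitochondrial scaling it was at −2.04, −1.76 and −0.70 in the same order. Among 9 genes of the SMC5/6 complex and the EID family, relatives of EID3, 2 were higher and 4 lower (22.2% and 44.4%, median −0.16), with NSMCE1 at 0.52 and EID2 at −1.30. Of 6 tested among 11 relatives of CIMIP2A and STPG3, 2 were higher and 2 lower (33.3% each, median 0.04), with MNS1 at 0.79 and PIERCE2 at −2.78. The formins, relatives of DIAPH2, had 4 of 11 higher and 5 lower (36.4% and 45.5%, median −0.16), with FMNL1 at 0.85 and FMNL3 at −1.22. The directions of NSMCE1, RPA3, MNS1 and FMNL1 are given under TMM, and no RPA, SMC5/6 or EID gene and no formin was called higher with the lapatinib combination when scaled to mitochondrial mRNAs.

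Finally, the members were set beside other protein-coding genes in the same position. Among 256 tested genes whose span lies within that of a longer gene on the same strand, a class that would take in EID3 and RPA4, 103 were higher and 73 lower with the lapatinib combination (40.2% and 28.5%, median log2 FC 0.15), against 33.8% and 40.7% of all 13745 tested protein-coding genes (median −0.08). In this class 27 exceeded a log2 FC of 1 (10.5%), against 5.26% of all protein-coding genes. With the mitochondrial scaling 19 were higher and 127 lower (7.42% and 49.6%), against 3.7% and 62.2% of all protein-coding genes. Under TMM, the nilotinib combination gave 39.5% higher and 30.1% lower, against 33.7% and 39.9% of all protein-coding genes. With 1 μM THZ531 the shares were 33.2% and 33.2%, against 32.6% and 40.1%, and 7.81% exceeded a log2 FC of 1, against 3.35%. With the lapatinib combination, TMPPE, LIMS4 and FASTKD5 had the largest rises among those averaging at least 1 on the log2 CPM scale, at 2.04, 1.80 and 1.57. Among those with 1 exon, 4 of 16 were higher and 8 lower (median −0.51), 3 of them (18.8%) exceeded a log2 FC of 1, against 19.8% of all 257 tested protein-coding genes with 1 exon, and YY2, a transcription factor gene within MBTPS2, was the only one of them above 1 on the scale of mean log2 CPM to rise (0.84, edgeR's adjusted p = 1.75e-05), under TMM. Among 4032 genes whose 3′ end lay within 5 kb of the 3′ end of a gene on the other strand or overlapped it, as CIMIP2A and TUBB4B do, 36.0% were higher and 37.6% lower (median 0.01) and 5.56% exceeded a log2 FC of 1. RASD1, JUNB and CUTA had the highest rises in this class, at 3.72, 2.92 and 2.24. Genes nested on the opposite strand had 124 of 380 higher and 158 lower (median −0.11), with JUNB, IER5L and CSKMT highest at 2.92, 2.66 and 2.44. Of these 380 genes, 37 exceeded a log2 FC of 1 (9.74%), close to the 10.5% of those nested on the same strand. Each of these classes held genes called in both directions, and whether a class differs from other genes was not tested. The class nested on the same strand includes clusters whose genes share a host, such as the PCDHA and PCDHG genes. All classes were set by gene spans alone, so genes over exons of their host were not left out. EID3 and RPA4 have 0 bases in exons of theirs. Genes with too few counts in every group did not pass the filter and are in none of the classes.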

How the data were processed

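RNA of 21 libraries of Hs578T cells (7 groups, 3 replicates) was measured from unstranded, polyA-selected paired-end reads. The authors aligned filtered reads to GRCh38 with HISAT2 2.1.0 (version from the submitters' processing notes), counted them with featureCounts and deposited raw counts per NCBI gene without normalization. The annotation, the treatment of reads over 2 genes, and whether pairs or ends were counted are not given in the sources used here; without strand, reads from the overlap of CIMIP2A and TUBB4B cannot be told apart. Even counts made up 61.6% to 66.4% of genes with few counts, and the totals per library exceed the number of paired-end reads that the study states. Counting the ends of a pair separately would give both, so counts were also halved and rounded. Library columns were matched to samples by name.

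Counts were filtered with filterByExpr, scaled by TMM and modelled in edgeR 4.0.16 (R 4.3.3) with 1 mean per group, and tested by glmQLFTest, with Benjamini-Hochberg adjustment over the 16036 genes left. The genes described and the lists were chosen with earlier results of these data known, and the contrasts on which CIMIP2A, EID3 and RPA4 were chosen have no test. Named genes were the members, genes of the table within 20 kb of a riser or overlapping a member, the 3 most alike genes, the largest rise and fall called in each list, and the 3 largest rises called in each position class at a mean log2 CPM of at least 1. Of the gene identifiers, 27745 of 28395 matched RefSeq and 26153 matched GENCODE v44. Position classes used GENCODE in place of RefSeq, which gave strands and exons. Counting intervals are exact (95%) and cover counting error only, and floors are 3 counts per library. These intervals treat every count as independent and are too narrow if both ends of a read pair were counted. Intronic read positions were not analysed here. The test was tried on simulated counts with known changes.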

Additional observations from a re-analysis of the deposited data

Results flagged for a closer look

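By the interaction term of edgeR's fit, the effect of 0.1 μM THZ531 differed with either inhibitor for TUBB4B and DIAPH2, and with lapatinib for TXNRD1. Over all genes this term was called higher in 28.2% and lower in 32.0% for lapatinib, and in 25.6% and 31.2% for nilotinib. Most genes were thus called in one direction or the other, and these calls are close to that background. For TUBB4B the interaction was 0.68 with lapatinib and 0.44 with nilotinib (edgeR's adjusted p = 3.83e-05 and 0.00269). For TXNRD1 it was −0.31 with lapatinib (edgeR's adjusted p = 0.00223). For DIAPH2 it was 0.47 with lapatinib and 0.56 with nilotinib (edgeR's adjusted p = 0.00141 and 0.00033). The values of TUBB4B and DIAPH2 lost significance or turned when scaled to mitochondrially encoded mRNAs, and the part of scaling in them was not tested further. That of TXNRD1 with lapatinib did not pass with upper-quartile scaling (−0.12, edgeR's adjusted p = 0.209).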

How the results depend on the processing

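Depth limits RPA4, STPG3 and the DMSO level of CIMIP2A, and gene counts do not show where in a locus the reads lie. Of 484 values recomputed under alternatives other than leaving out a library, 432 were counted as unchanged. For tested values this meant the same side of the threshold, and the same direction where either fit passed it. A value that passed in neither fit could change its sign and still be counted as unchanged. Library size alone gave TXNRD1 −0.26, −0.21 and −0.10 against DMSO with the lapatinib combination, the nilotinib combination and 1 μM THZ531, and −0.17 for the lapatinib combination against 1 μM THZ531, now past the threshold. It also ended the calls of DIAPH2 (0.05, 0.13 and 0.13 in the same order), of TUBB4B with 1 μM THZ531 (0.10) and between the nilotinib combination and 1 μM THZ531 (0.21), and of the interactions of DIAPH2 with lapatinib (0.17) and TUBB4B with nilotinib (0.20). Scaling to mitochondrial mRNAs gave TUBB4B 0.04, −0.01 and −0.18, TXNRD1 −0.62, −0.53 and −0.38 and DIAPH2 −0.30, −0.19 and −0.16, and interactions of 0.12 and −0.02 for TUBB4B and −0.08 and 0.10 for DIAPH2. It also ended the calls of TXNRD1 with lapatinib (0.13), of TUBB4B (0.22 and 0.17) and RPA4 (1.55) against 1 μM THZ531 and of EID3 between the combinations (0.76). With upper-quartile scaling TXNRD1 with the combinations (0.22 and 0.24) and its interaction with nilotinib (0.29) passed, while its interaction with lapatinib (−0.12), its change with lapatinib (0.27) and TUBB4B between the nilotinib combination and 1 μM THZ531 (0.19) did not. TXNRD1 with the nilotinib combination was 0.15 and passed with DESeq2's size factors and with its test. TXNRD1 with lapatinib stayed at 0.27 but did not pass with those size factors, without a filter or with only the groups compared. RPA4 between the nilotinib combination and 1 μM THZ531 did not pass without a filter (1.66) or with only the groups compared (1.69), nor did TUBB4B (0.28) and EID3 between the combinations (0.82) in the latter. The interaction of TXNRD1 with lapatinib was −0.61 with library size alone and −0.85 with the mitochondrial scaling, and with nilotinib it turned to −0.12 and −0.32, none of the latter past the threshold. The cause was not tested.

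The level of CIMIP2A with the combinations and 1 μM THZ531 was 8.22, 8.46 and 7.4 CPM when scaled to mitochondrial mRNAs, that of EID3 with the combinations 13.7 and 8.08 CPM and that of RPA4 with the nilotinib combination 0.27 CPM, and with library size alone CIMIP2A was at 9.35 CPM with the nilotinib combination and EID3 at 15.5 CPM with the lapatinib combination.

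Without 1 library, the log2 FC of TXNRD1 with lapatinib ranged from 0.21 to 0.31 and stayed called only without replicate 1 of the lapatinib combination, replicate 1 of nilotinib or replicate 2 of 1 μM THZ531. TXNRD1 with 1 μM THZ531 ranged from 0.13 to 0.19. TUBB4B between the nilotinib combination and 1 μM THZ531 ranged from 0.18 to 0.32 and was lost without replicate 2 or 3 of the former or replicate 2 of the latter. EID3 between the combinations ranged from 0.69 to 0.94 and was lost without replicate 2 or 3 of the lapatinib combination or replicate 1 or 3 of the nilotinib combination. RPA4 between the nilotinib combination and 1 μM THZ531 ranged from 1.28 to 2.66 and stayed called only without DMSO replicate 3, lapatinib replicate 1 or 3, nilotinib replicate 1 or 2, replicate 1 or 3 of the lapatinib combination or replicate 3 of 1 μM THZ531. For the lapatinib combination against 1 μM THZ531, RPA4 ranged from 0.99 to 2.37 and CIMIP2A from 0.2 to 0.4, the latter called only without replicate 1 of the combination (edgeR's adjusted p = 0.0439).

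With the replicate number as a block, 0 of 48 tested values changed side of the threshold or direction, and EID3 between the combinations was 0.82. Same-numbered libraries deviated together only weakly (mean r of 0.11, from −0.72 to 0.81 over 63 pairs), and 8 of 21 libraries correlated best with their own number. The filter of at least 10 counts in every library, which left out CIMIP2A and RPA4, and halved counts changed no call.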

Other observations

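Of the 16 other genes of 1 exon that lie in the same direction within a longer gene, 3 rose by more than 1 on the log2 scale (18.8%, against 19.8% of all 1-exon protein-coding genes tested), and these were named after their values were seen; near-identical paralogs can share reads with such genes. With the lapatinib combination, SUMO4, a SUMO paralog within TAB2, rose by 5.98 while TAB2 was at 0.85 (edgeR's adjusted p = 7.55e-09 and 1.25e-07). OMP, the olfactory marker protein gene within CAPN5, rose by 4.89 while CAPN5 was at −0.04 (edgeR's adjusted p = 3.33e-06 and 0.724). HUS1B, a paralog of the checkpoint gene HUS1 within EXOC2, rose by 4.77 while EXOC2 was at −0.39 (edgeR's adjusted p = 6.17e-10 and 6.57e-05). All 3 also rose with the nilotinib combination (5.78, 4.77 and 4.78) and with 1 μM THZ531 (4.53, 3.83 and 3.40). Their mean log2 CPM was only −2.77 (SUMO4), −3.12 (OMP) and −1.5 (HUS1B), so these large values rest on genes with few counts. Genes this low can pass the filter on low counts through the groups in which they are high. Silent genes of this class that did not rise would be left out, so the share of 3 in 16 depends on the filter. As the genes were picked on these values, their p-values are a description. In the same class MCTS2, within HM13 and likewise chosen after its values were seen, fell by 2.54 on the log2 scale with the lapatinib combination (edgeR's adjusted p = 1.37e-13) while HM13 was at 0.37.

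Over 103 nested genes on the same strand whose host was also tested, 60 had a higher log2 FC than the host with the lapatinib combination, 28 of them by more than 1, and 18 were lower than the host by more than 1. Many of these genes share a host, such as the PCDHG genes set against PCDHGA1 and the PCDHA genes set against PCDHA1. The 103 pairs are therefore not independent of each other. They were set by gene spans alone, so genes over exons of their host were not left out.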
